A study of Homo sapiens with 17 samples.

Results

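EGFR, its ligand gene EREG and a group of genes that the ERK branch of the MAPK pathway switches on were followed in YB5 cells treated with toyocamycin. The genes were named from what is known of the pathway, as outputs and feedback regulators whose transcripts are held to be short-lived, and not by a threshold on their values. They are EGFR, EREG, DUSP4, DUSP5, DUSP6, SPRY2, SPRY4, SPRED1, ETV4 and ETV5, or 10 of the 19141 genes in the count table, and all 10 passed the filter on low counts. The lifetime of a transcript was not measured here.

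EGFR is a receptor tyrosine kinase at the surface of epithelial cells, and epiregulin, the product of EREG, is one of the ligands that activate it. The signal passes through RAS, RAF and MEK to the kinase ERK, which then turns on genes that restrain the same pathway: DUSP phosphatases take the activating phosphates off MAP kinases, and Sprouty and SPRED proteins act upstream at the level of the receptor, RAS and RAF. ETV4 and ETV5 are ETS family transcription factors whose transcription follows ERK activity, which is why these genes serve as a readout of the pathway in colon cancer cells. Transcripts of such feedback genes are commonly unstable, so that their level follows transcription closely.

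All libraries come from YB5, a line made from SW48 colon cancer cells, which holds a stably inserted GFP gene under a silenced CMV promoter. Cells were exposed to 250 nM toyocamycin, an adenosine analog made by Streptomyces, or to the vehicle DMSO, and polyadenylated RNA was sequenced from both ends. The 17 libraries comprise 8 from DMSO and 9 from toyocamycin: 2 in each arm at 2 h, 1 in each arm at 24 h and at 48 h, 3 in each arm at 72 h, and 1 DMSO and 2 toyocamycin libraries at 10 h. For the last time the labels give 72 h, which is used here, where the text of the paper has 96 h. Of 2 labelled batches, the second comprises the libraries numbered 2 of both arms at 2 h and 10 h, and the other 13 libraries are batch 1. They speak of biological triplicates without saying which cultures these libraries came from, so p-values measure only the spread between the libraries.

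The total count of a library on genes ranged from 8735465 to 22121364 and was lowest in replicate 2 of toyocamycin at 10 h, where the mitochondrially encoded genes took 6.55% of counts against 0.917% to 3.49% in the other libraries. The 100 most abundant genes took 18.6% to 22.2% of counts in DMSO and 31.4% to 37.4% in the toyocamycin libraries of 10 to 72 h. The epithelial genes EPCAM, CDH1, KRT8, KRT18 and CDX2 were expressed, while KRT20 and CDX1, markers of differentiated colon cells, were at or near 0. VIL1, also on the epithelial list, was low as well, at 0.0742 to 5.72 CPM. The summed level of the 8 epithelial markers ranged from 2230 to 7260 CPM in DMSO and from 381 to 4480 CPM on toyocamycin, and its part in the results was not tested. The 5 fibroblast markers summed to at most 22.6 CPM, and the 4 leukocyte markers to at most 50 CPM, of which CD79A made up 49.3. The CPM of these markers are read counts relative to the size of the library alone. All other CPM are also scaled by the trimmed mean of M-values (TMM), a method that sets the bulk of genes level between libraries. A level is therefore relative to the other transcripts of the same library, and in bulk RNA fewer cells of a type and less RNA per cell cannot be told apart.

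The starts of 6 of the 10 genes were in the RefSeq promoter table of GRCh38.p14, namely EGFR, EREG, DUSP6, SPRY2, SPRY4 and SPRED1; DUSP4, DUSP5, ETV4 and ETV5 were not matched. EGFR has 2 starts in that table and SPRY2 has 3, of which the one at the 5′ end of the gene is shown, and the other 4 genes have 1 each. The 250 bases upstream of the start, which for SPRY4 lies inside the annotated span of the gene, are printed for EGFR, which was lower on toyocamycin from 10 h on, for EREG, SPRY2 and DUSP6, which were higher at 10 and 72 h, and for SPRY4, which was higher from 2 h on. Capitals mark matches of 6 short motifs, which were searched on both strands and are spelled out after the sequences.
EGFR, chr7:55018767-55019016, plus strand: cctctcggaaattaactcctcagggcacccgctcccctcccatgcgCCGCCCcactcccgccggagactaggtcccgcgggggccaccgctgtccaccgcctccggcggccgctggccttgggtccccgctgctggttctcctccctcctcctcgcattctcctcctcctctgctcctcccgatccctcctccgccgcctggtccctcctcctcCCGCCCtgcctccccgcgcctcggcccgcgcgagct
EREG, chr4:74364895-74365144, plus strand: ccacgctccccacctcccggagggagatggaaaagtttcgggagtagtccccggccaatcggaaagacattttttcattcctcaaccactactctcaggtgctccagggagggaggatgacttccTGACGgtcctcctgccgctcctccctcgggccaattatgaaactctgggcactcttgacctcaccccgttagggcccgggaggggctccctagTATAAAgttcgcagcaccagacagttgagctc
SPRY2, chr13:80341127-80341376, minus strand: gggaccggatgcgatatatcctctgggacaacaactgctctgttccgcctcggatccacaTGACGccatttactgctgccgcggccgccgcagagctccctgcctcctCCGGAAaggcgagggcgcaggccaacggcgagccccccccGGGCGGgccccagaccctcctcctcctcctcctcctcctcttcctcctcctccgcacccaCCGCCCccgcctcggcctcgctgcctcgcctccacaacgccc
SPRY4, chr5:142324248-142324497, minus strand: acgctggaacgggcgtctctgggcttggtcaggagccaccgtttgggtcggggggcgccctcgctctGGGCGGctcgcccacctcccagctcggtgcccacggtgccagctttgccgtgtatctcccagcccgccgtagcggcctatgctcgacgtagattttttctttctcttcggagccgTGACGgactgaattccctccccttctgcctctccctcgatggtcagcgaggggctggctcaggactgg
DUSP6, chr12:89352502-89352751, minus strand: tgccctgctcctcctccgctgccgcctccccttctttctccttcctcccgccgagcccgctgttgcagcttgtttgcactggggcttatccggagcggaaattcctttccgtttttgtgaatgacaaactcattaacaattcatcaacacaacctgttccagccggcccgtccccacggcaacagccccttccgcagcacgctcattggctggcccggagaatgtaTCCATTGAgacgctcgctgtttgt
EREG has a TATA box match 32 bases before its start, written TATAAA, which 10.7% of 35116 promoter windows of this length hold. It also has the core of a cyclic AMP response element, with the letters TGACG, 125 bases before the start, and so have SPRY2 and SPRY4, as do 21.2% of all windows. The GC box, searched as GGGCGG, is found before EGFR, SPRY2 and SPRY4, before SPRED1, whose window is not printed, and in 42.6% of all windows. The core of an ETS site, searched as CCGGAA and held by 14.5% of all windows, is found before SPRY2. The octamer of CIC, a repressor that ERK inactivates, was searched loosely as TNAATGNA. DUSP6 has a match 24 bases before its start, and 9.77% of all windows hold one. Since N stands for any letter, this search can also take in octamers that CIC does not bind. The AP-1 site, searched as TGANTCA and held by 6.57% of all windows, is in none of the printed stretches. The window of the other EGFR start (chr7:55109589-55109838, plus strand, not printed) holds 2 matches of the AP-1 site, 2 of the TATA box and 1 of the loose string TNAATGNA, and the windows of the other SPRY2 starts hold no match of the 6 motifs. The AP-1 letters and those of the cyclic AMP response element can share their first bases, but no marked matches overlap. A match is a description of the letters and no evidence of binding.

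The 3' untranslated region carries the ATTTA pentamer, the core of AU-rich elements that are known from unstable transcripts, in 8 of these genes. EREG holds 20 copies in 3941 bases (5.08 per kilobase) and SPRED1 holds 24 in 5585 (4.30 per kilobase), EGFR holds 9, SPRY4 8, DUSP4 6, ETV5 4, SPRY2 2 and DUSP6 1, and DUSP5 and ETV4 hold 0. The median over the 10 genes was 1.62 per kilobase, against 1.68 over 17811 genes with at least 100 bases there, so that the density of these genes was near that of other genes. None of the 10 holds a pair of overlapping pentamers, which 7.59% of all genes do. Sites of 30 bases with more than 1 pentamer, in capitals, are shown for the densest regions and for the receptor (GRCh38, plus strand).
EREG, chr4:74387365-74387394: aatccATTTAtttcATTTAcaaaagATTTA
SPRED1, chr15:38353336-38353365: atactttttttaagaaagcATTTAtATTTA
EGFR, chr7:55210238-55210267: atttttatATTTAcaattgatatgcATTTA

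Levels between genes are compared per kilobase of exons, in CPM per kilobase. At 72 h in DMSO, DUSP4 was highest at 128 ± 7.86 (SD, n = 3), followed by EGFR at 60.6 ± 4.19 and ETV4 at 17.03 ± 1.96. DUSP6 at 11.5 ± 0.927 and DUSP5 at 11.1 ± 1.2 did not differ beyond their spread, nor did SPRY2 at 8.86 ± 0.809 and EREG at 7.76 ± 1.41, and ETV5, SPRED1 and SPRY4 lay at 4.71 ± 0.190, 3.98 ± 0.343 and 3.94 ± 0.473. At 72 h on toyocamycin the order was DUSP4 at 1827 ± 139 CPM per kilobase, SPRY2 at 341 ± 29.5, EREG at 98.2 ± 9.72 and DUSP6 at 39.3 ± 1.06. EGFR at 18.1 ± 0.703 and SPRY4 at 16.8 ± 2.42 did not differ beyond their spread, SPRED1 stood at 12.9 ± 1.25 and DUSP5 at 6.71 ± 0.206, and ETV4 at 2.79 ± 0.497 and ETV5 at 2.41 ± 0.396 were lowest and overlapped. By length-scaled level, EGFR thus went from the second place to the fifth, and SPRY2 from the sixth to the second.

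**Figure D1:**
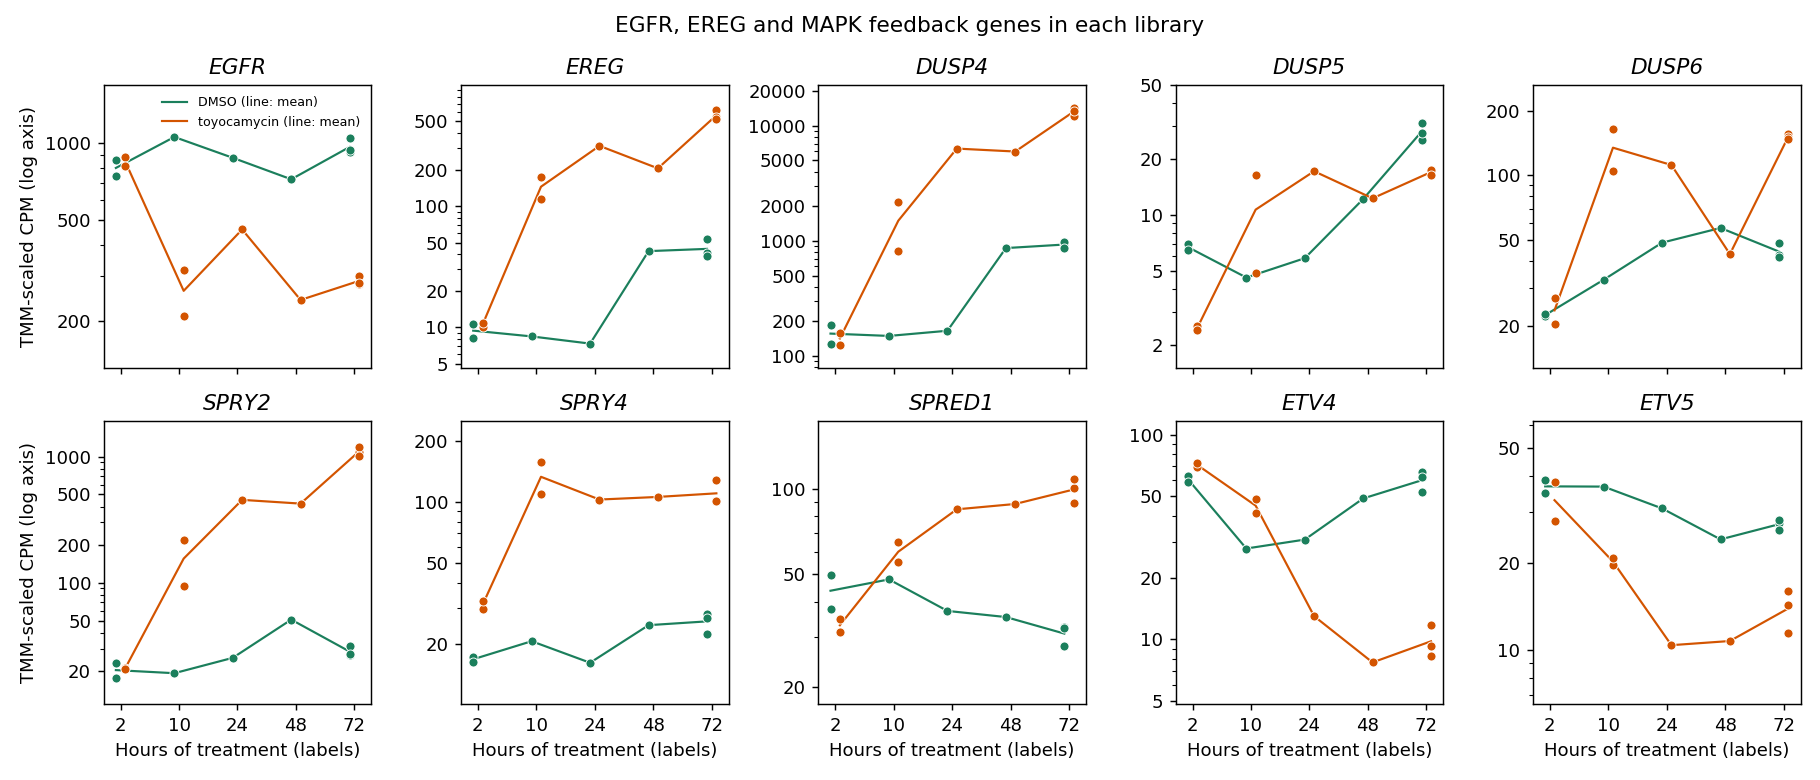
TMM-scaled CPM of the 10 genes in each of the 17 libraries (log axis) against the labelled hours of treatment, with 1 point for each library and a line through the mean of each arm, DMSO in green and toyocamycin in orange. At 2 h the arms lie apart for DUSP5, SPRY4, SPRED1 and ETV4, and at 72 h they do not overlap for any of the 10 genes, with EGFR, DUSP5, ETV4 and ETV5 lower and the others higher on toyocamycin.

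After 2 h of toyocamycin, DUSP5 fell and SPRY4 rose, while EGFR, EREG, DUSP4, DUSP6, SPRY2, SPRED1, ETV4 and ETV5 did not pass the threshold, an adjusted p under 0.1 in edgeR's quasi-likelihood test (Benjamini-Hochberg over 14491 genes). Thus 1 of 10 was lower, where 8.42% of all genes tested were lower, and 1 of 10 was higher, where 0.518% of all genes were higher (8.94% in either direction). With replicate number as a block, fitted to the 4 libraries of 2 h alone, 2 of 10 were lower (SPRED1 in addition, adjusted p = 0.0103 in edgeR) and 1 of 10 higher, where 18.7% and 8.72% of 11848 genes were. The median log2 fold change of the 10 genes was 0.06, against 0.02 over all genes, and the median size of the change was 0.16 against 0.23.

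The receptor gene EGFR (chr7:55019017-55211628, plus strand, GRCh38, as for all gene positions here) was at 741 and 857 CPM in DMSO at 2 h, at 1057, 876 and 721 CPM in the single DMSO libraries of 10, 24 and 48 h, and at 920, 936 and 1043 CPM at 72 h. On toyocamycin it was at 882 and 811 CPM at 2 h, at 318 and 209 CPM at 10 h, at 458 and 243 CPM at 24 and 48 h, and at 280, 301 and 284 CPM at 72 h. The arms overlapped at 2 h, and at each later time every toyocamycin library was below every DMSO library. The log2 fold change was 0.08 at 2 h (95% interval -0.23 to 0.40, adjusted p = 0.852 in edgeR), -2.0 at 10 h (SE 0.24, adjusted p = 1.54e-05) and -1.71 at 72 h (SE 0.13, adjusted p = 3.41e-09, a 3.28-fold fall). At 24 and 48 h, where an arm is 1 library and no test was made, it was -0.92 and -1.55. An antisense gene, EGFR-AS1, lies in the same span and is not in the count table, and since the strand setting of the counting is not given in the sources used here, its reads could be counted with EGFR.

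EREG (chr4:74365145-74388749, plus strand), the ligand gene, was at 8.20 and 10.5 CPM in DMSO at 2 h, at 8.39, 7.32 and 42.5 CPM at 10, 24 and 48 h, and at 40.7, 38.7 and 53.5 CPM at 72 h. The toyocamycin libraries held EREG at 10.1 and 10.9 CPM at 2 h, at 174 and 115 CPM at 10 h, at 314 and 205 CPM at 24 and 48 h, and at 624, 539 and 520 CPM at 72 h. The arms overlapped at 2 h and were far apart from 10 h on. EREG rose by 4.11 on the log2 scale at 10 h (SE 0.35, adjusted p = 1.23e-06 in edgeR), stood 43.2-fold higher in the 1 pair of libraries at 24 h and 4.91-fold higher at 48 h, and was 13-fold higher at 72 h (log2 fold change 3.69, SE 0.16, adjusted p = 1.16e-11). The smaller ratio at 48 h went with a DMSO level that was itself higher at 48 and 72 h than up to 24 h.

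DUSP4, DUSP5 and DUSP6 encode phosphatases that inactivate MAP kinases, the first 2 in the nucleus and DUSP6 in the cytoplasm with a preference for ERK. DUSP4 (chr8:29333064-29350684, minus strand) was at 185 and 128 CPM in DMSO at 2 h, at 149, 166 and 866 CPM at 10, 24 and 48 h, and at 943, 979 and 867 CPM at 72 h. With toyocamycin, DUSP4 was at 159 and 125 CPM at 2 h, at 2184 and 815 CPM at 10 h, at 6343 and 5980 CPM at 24 and 48 h, and at 12180, 14170 and 13510 CPM at 72 h. No library of 2 h stood apart, and from 10 h on the toyocamycin libraries were above the DMSO library or libraries of the same time. The log2 fold change of DUSP4 was -0.14 at 2 h (95% interval -0.56 to 0.28, adjusted p = 0.793 in edgeR), 3.33 at 10 h (SE 0.48, adjusted p = 7.18e-05) and 3.87 at 72 h (SE 0.18, adjusted p = 2.01e-11, a 14.6-fold rise). In the single pairs of 24 and 48 h it was 5.27 and 2.81. By its counts DUSP4 ranked 5th to 7th among all genes in the 3 toyocamycin libraries of 72 h and 95th to 109th in the DMSO libraries.

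DUSP5 (chr10:110497907-110511533, plus strand) was at 6.94 and 6.48 CPM in DMSO at 2 h, at 4.60, 5.84 and 12.2 CPM at 10, 24 and 48 h, and at 25.3, 31.4 and 27.7 CPM at 72 h. On toyocamycin it was at 2.53 and 2.38 CPM at 2 h, at 16.5 and 4.86 CPM at 10 h, at 17.2 and 12.3 CPM at 24 and 48 h, and at 17.2, 17.4 and 16.4 CPM at 72 h. DUSP5 was below DMSO in both batches at 2 h, and it was below DMSO in all libraries again at 72 h, where the DMSO level had risen past that of the drug. Its log2 fold change was -1.45 at 2 h (SE 0.21, adjusted p = 0.000358 in edgeR, a 2.73-fold fall) and -0.69 at 72 h (SE 0.15, adjusted p = 0.00036). At 10 h it was 1.25 (adjusted p = 0.0392 in edgeR), a call that rests on replicate 1 of toyocamycin. Without that library the log2 fold change was 0.08, and without replicate 2 it was 1.85. In the single pairs of 24 and 48 h it was 1.57 and 0.04.

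DUSP6 (chr12:89347235-89352501, minus strand) was at 22.3 and 22.6 CPM in DMSO at 2 h, at 32.8, 48.7 and 57.0 CPM at 10, 24 and 48 h, and at 42.6, 41.9 and 48.4 CPM at 72 h. With the drug, DUSP6 was at 20.3 and 26.9 CPM at 2 h, at 165 and 105 CPM at 10 h, at 112 and 43.1 CPM at 24 and 48 h, and at 156, 151 and 148 CPM at 72 h. The arms overlapped at 2 h, the toyocamycin libraries were above DMSO at 10, 24 and 72 h, and the 1 library of 48 h was below. DUSP6 rose by 2.04 on the log2 scale at 10 h (SE 0.29, adjusted p = 5.6e-05 in edgeR) and by 1.81 at 72 h (SE 0.13, adjusted p = 3.28e-09, 3.50-fold), with 1.21 and -0.38 in the single pairs of 24 and 48 h.

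SPRY2, SPRY4 and SPRED1 encode membrane-associated proteins that dampen RAS and RAF signaling downstream of growth factor receptors, and SPRED1 does so by bringing neurofibromin to the membrane. SPRY2 (chr13:80335976-80341126, minus strand) was at 23.2 and 17.4 CPM in DMSO at 2 h, at 19.2, 25.4 and 51.0 CPM at 10, 24 and 48 h, and at 31.5, 26.9 and 27.0 CPM at 72 h. On toyocamycin it was at 21.2 and 20.8 CPM at 2 h, at 216 and 94.5 CPM at 10 h, at 453 and 423 CPM at 24 and 48 h, and at 1083, 1198 and 1010 CPM at 72 h. SPRY2 lay within the range of the DMSO libraries at 2 h and above every DMSO library at all later times, and at 72 h it showed the largest rise of the 10 genes. The log2 fold change was 0.05 at 2 h (95% interval -0.32 to 0.41, adjusted p = 0.956 in edgeR), 3.02 at 10 h (SE 0.41, adjusted p = 4.28e-05) and 5.30 at 72 h (SE 0.16, adjusted p = 6.27e-13, 39.4-fold), with 4.17 and 3.08 in the single pairs of 24 and 48 h.

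SPRY4 (chr5:142310427-142326455, minus strand) was at 17.3 and 16.3 CPM in DMSO at 2 h, at 20.6, 16.2 and 24.7 CPM at 10, 24 and 48 h, and at 28.2, 27.0 and 22.3 CPM at 72 h. The toyocamycin libraries held SPRY4 at 29.7 and 32.6 CPM at 2 h, at 157 and 109 CPM at 10 h, at 103 and 106 CPM at 24 and 48 h, and at 101, 129 and 102 CPM at 72 h. SPRY4 was above DMSO in both batches at 2 h and at every later time, and from 10 h on its level on toyocamycin stayed between 101 and 157 CPM. It rose by 0.89 on the log2 scale at 2 h (SE 0.18, adjusted p = 0.00487 in edgeR, 1.85-fold), by 2.69 at 10 h (SE 0.29, adjusted p = 5.83e-06) and by 2.13 at 72 h (SE 0.15, adjusted p = 1.53e-09, 4.37-fold). The single pairs of 24 and 48 h gave 2.68 and 2.12. The antisense gene SPRY4-AS1 overlaps it and is not in the count table.

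SPRED1 (chr15:38252836-38357249, plus strand) was at 37.7 and 49.7 CPM in DMSO at 2 h, at 47.9, 37.1 and 35.3 CPM at 10, 24 and 48 h, and at 32.6, 27.8 and 32.2 CPM at 72 h. On toyocamycin it was at 34.7 and 31.3 CPM at 2 h, at 64.8 and 55.3 CPM at 10 h, at 84.7 and 88.5 CPM at 24 and 48 h, and at 89.4, 101 and 109 CPM at 72 h. At 2 h both toyocamycin libraries were below both DMSO libraries, and at all later times they were above. Its log2 fold change at 2 h was -0.40 (SE 0.17, adjusted p = 0.254 in edgeR), and with replicate number as a block, which at 2 h is the labelled batch, the same value of -0.40 passed the threshold (adjusted p = 0.0103), so that 2 of the 10 genes were then lower. It also passed without replicate 1 of DMSO at 2 h (-0.59, adjusted p = 0.0753). The change at 10 h was 0.33 (adjusted p = 0.259 in edgeR), and it passed with DESeq2's size factors (0.53, adjusted p = 0.0733), with genes of at least 10 counts in every library (0.46, adjusted p = 0.0805) and in the Wald test of DESeq2 (0.53, adjusted p = 0.0191). At 72 h SPRED1 rose by 1.72 on the log2 scale (SE 0.14, adjusted p = 1.58e-08, 3.30-fold), with 1.21 and 1.35 in the single pairs of 24 and 48 h.

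The ETS factor genes went the other way from most of the feedback inhibitors at 72 h. ETV4 (chr17:43527844-43579620, minus strand) was at 62.5 and 58.9 CPM in DMSO at 2 h, at 27.8, 30.7 and 48.8 CPM at 10, 24 and 48 h, and at 65.5, 61.9 and 52.2 CPM at 72 h. With toyocamycin, ETV4 was at 69.4 and 73.0 CPM at 2 h, at 48.5 and 41.6 CPM at 10 h, at 13 and 7.73 CPM at 24 and 48 h, and at 9.34, 8.34 and 11.7 CPM at 72 h. The toyocamycin libraries were thus above DMSO at 2 and 10 h and below it from 24 h on. The log2 fold change was 0.23 at 2 h (95% interval -0.13 to 0.59, adjusted p = 0.596 in edgeR), 0.70 at 10 h (SE 0.24, adjusted p = 0.0325) and -2.58 at 72 h (SE 0.16, adjusted p = 4.35e-10, a 5.96-fold fall), with -1.23 and -2.63 in the single pairs of 24 and 48 h. ETV4 overlaps DHX8 on the other strand, which is also in the count table.

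ETV5 (chr3:186046314-186110318, minus strand) was at 34.8 and 38.7 CPM in DMSO at 2 h, at 36.7, 30.9 and 24.1 CPM at 10, 24 and 48 h, and at 27.5, 26.0 and 28.2 CPM at 72 h. The toyocamycin libraries held ETV5 at 27.8 and 38.0 CPM at 2 h, at 19.6 and 20.8 CPM at 10 h, at 10.4 and 10.7 CPM at 24 and 48 h, and at 16.0, 11.5 and 14.3 CPM at 72 h. The arms overlapped at 2 h, and ETV5 was below DMSO in every toyocamycin library of the later times. Its log2 fold change was -0.16 at 2 h (95% interval -0.57 to 0.24, adjusted p = 0.743 in edgeR), -0.86 at 10 h (SE 0.24, adjusted p = 0.0101) and -0.94 at 72 h (SE 0.17, adjusted p = 7.28e-05, a 1.91-fold fall), with -1.56 and -1.14 in the single pairs of 24 and 48 h. The span of ETV5 overlaps that of DGKG on the same strand and of the antisense gene ETV5-AS1, so reads in the shared stretch are uncertain.

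At 10 h, EGFR and ETV5 fell and EREG, DUSP4, DUSP5, DUSP6, SPRY2, SPRY4 and ETV4 rose, while SPRED1 did not pass the threshold with TMM scaling. That is 2 of 10 lower, where 24.4% of 16521 genes were lower, and 7 of 10 higher, where 20.4% were higher (44.8% in either direction), with a median log2 fold change of 1.65 for the 10 genes and 0.42 for all. The DMSO arm at 10 h is 1 library of batch 2, which is assumed to vary like the other groups. Within batch 2, that is without replicate 1 of toyocamycin, each arm is 1 library, so only the values are given. The log2 fold change there was -2.34 for EGFR, 3.78 for EREG, 2.45 for DUSP4, 1.67 for DUSP6 and 2.30 for SPRY2. It was 2.40 for SPRY4, 0.58 for ETV4, -0.82 for ETV5, 0.08 for DUSP5 and 0.21 for SPRED1.

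In the single pairs of 24 h, ETV4 and ETV5 were more than 2-fold lower and EREG, DUSP4, DUSP5, DUSP6, SPRY2, SPRY4 and SPRED1 more than 2-fold higher. These 2 and 7 of 10 genes compare with 27.8% and 29.7% of all genes past that fold, 57.5% in all. At 48 h EGFR, ETV4 and ETV5 were past a 2-fold fall, against 29.9% of all genes, and EREG, DUSP4, SPRY2, SPRY4 and SPRED1 past a 2-fold rise, 5 of 10 against 38.1%, with 67.9% of all genes past 2-fold in either direction. The changes of 24 and 48 h have no replicate check.

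At 72 h all 10 genes passed the threshold, 4 lower (EGFR, DUSP5, ETV4 and ETV5) and 6 higher (EREG, DUSP4, DUSP6, SPRY2, SPRY4 and SPRED1), and in each of them the 3 toyocamycin libraries lay beyond the 3 DMSO libraries. This stands against 41.9% of all genes that were lower and 47.0% that were higher, 88.8% in all, so that a call at 72 h did not set these genes apart from the rest. Their median log2 fold change was 1.77 against 0.18 over all genes, and the median size of the change was 1.97 against 1.93. In the ranking of all genes by log2 fold change, SPRY2 stood at percentile 88.2, DUSP4 at 82.7 and EREG at 81.9, with EGFR at 23.2 and ETV4 at 13.5.

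**Figure D2:**
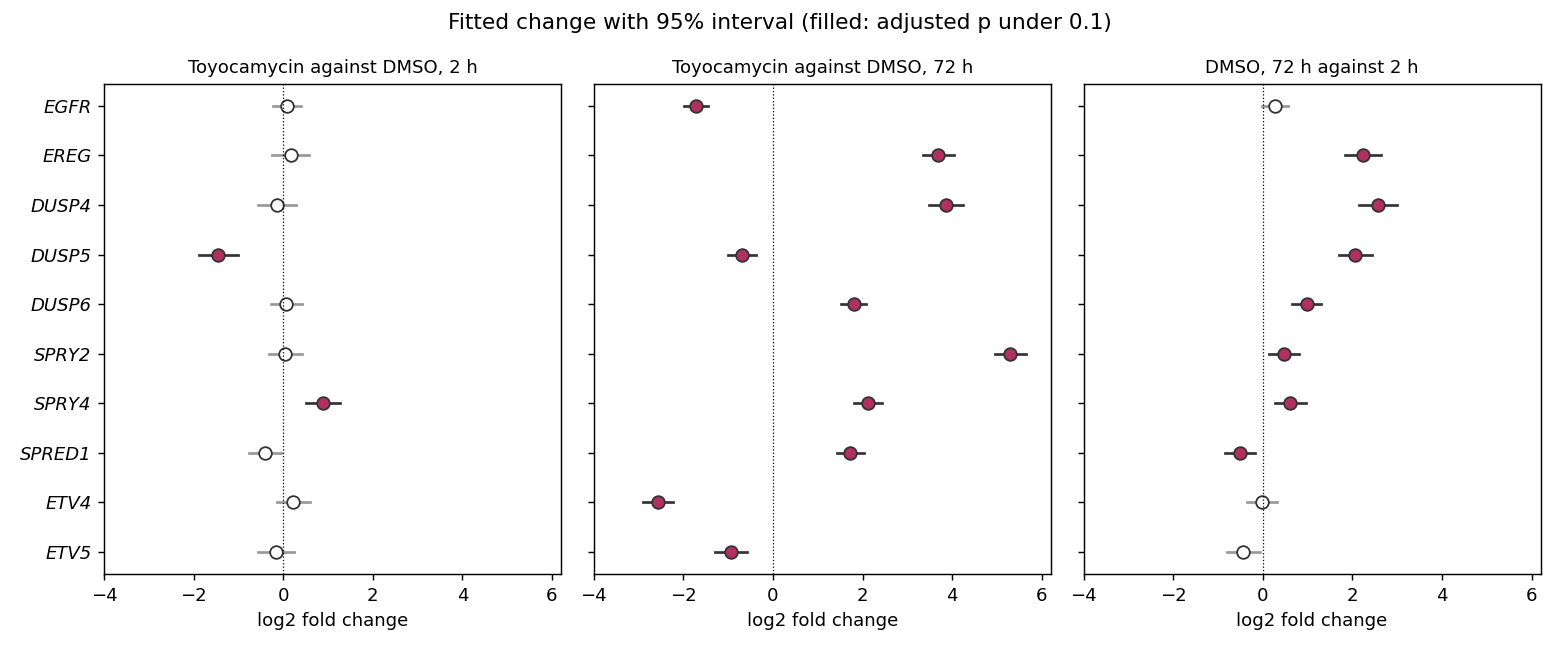
Fitted log2 fold change of each gene with its 95% interval, for toyocamycin against DMSO at 2 h (2 libraries in each arm) and at 72 h (3 in each arm), and for DMSO at 72 h against 2 h. Filled points have an adjusted p under 0.1: DUSP5 and SPRY4 at 2 h, all 10 genes at 72 h, and 7 genes in DMSO alone.

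The effect at 72 h was also set against that at 2 h, in the same fit. It was higher at 72 h for EREG, DUSP4, DUSP5, DUSP6, SPRY2, SPRY4 and SPRED1 (7 of 10, where 38.0% of all genes had a higher effect) and lower for EGFR, ETV4 and ETV5 (3 of 10, where 38.1% did, and 76.1% differed in either direction). The largest differences between the effects were 5.26 for SPRY2 (adjusted p = 8.72e-11 in edgeR) and 4.01 for DUSP4 (adjusted p = 3.05e-09), and the most negative was -2.81 for ETV4 (adjusted p = 3.53e-08). For DUSP5 the effect was negative at both times and 0.75 less so at 72 h (adjusted p = 0.014). The 2 h libraries include 1 of each arm from batch 2, and with batch as a term in all 17 libraries the counts were again 7 and 3. The call of DUSP5 was lost in the fit of all 17 libraries without that term (0.72, adjusted p = 0.2 in edgeR) and with library size alone (0.21, adjusted p = 0.482), and on a scale set by the mitochondrially encoded genes its value was -0.17 (adjusted p = 0.89).

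Several of these genes also changed in DMSO between 2 and 72 h, with no drug in the medium. EREG, DUSP4, DUSP5, DUSP6, SPRY2 and SPRY4 rose and SPRED1 fell, 7 of 10 genes, where 21.6% of all genes changed, 10.2% higher and 11.4% lower. The log2 fold change was 2.57 for DUSP4 (SE 0.20, adjusted p = 7.72e-07 in edgeR), 2.24 for EREG (adjusted p = 1.66e-06), 2.07 for DUSP5 (adjusted p = 1.84e-06) and 0.98 for DUSP6 (adjusted p = 0.000503). SPRY4 rose by 0.62 (adjusted p = 0.019) and SPRY2 by 0.48 (adjusted p = 0.0522), and SPRED1 fell by 0.50 (adjusted p = 0.0408). The values of EGFR, ETV4 and ETV5 were 0.27, -0.02 and -0.44 (adjusted p = 0.207, 0.98 and 0.105). Without replicate 2 of DMSO at 2 h, the library of batch 2, 4 genes passed: EREG at 2.43, DUSP4 at 2.33, DUSP5 at 2.02 and DUSP6 at 0.99, while SPRY2 at 0.30, SPRY4 at 0.57 and SPRED1 at -0.29 did not. SPRY2 also missed the threshold without replicate 1 of DMSO at 72 h (0.41, adjusted p = 0.168 in edgeR), and SPRED1 without replicate 2 of that group (-0.43, adjusted p = 0.162). The DMSO libraries of 72 h enter this comparison and that with toyocamycin, so the 2 are not independent.

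The comparison with DMSO at the same time therefore differs from a comparison with the start. DUSP5 at 72 h on toyocamycin, at 16.4 to 17.4 CPM, was below DMSO of 72 h at 25.3 to 31.4 CPM but above DMSO of 2 h at 6.48 to 6.94 CPM. DUSP4 on toyocamycin at 72 h, at 12180 to 14170 CPM, was above DMSO of both times. SPRY2, in contrast, lay between 17.4 and 51.0 CPM in all 8 DMSO libraries.

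The libraries can be scaled in other ways, and the choice shifts the log2 fold changes of all genes together. The median log2 fold change of all genes was 0.18 at 72 h with TMM, 0.50 with DESeq2's size factors, -0.42 with library size alone and -0.89 when the 13 mitochondrially encoded genes were held level. At 24 h these medians were 0.00, 0.09, -0.91 and -2.16, and at 10 h 0.42, 0.62, -0.04 and -0.70. Of all genes called at 72 h, 6065 were lower and 6804 higher with TMM, against 7362 and 4204 on the mitochondrial scale, and at 10 h the split was 4033 and 3375 with TMM, 3370 and 4258 with DESeq2's size factors, 5676 and 1872 with library size and 5362 and 503 on the mitochondrial scale. At 72 h each of the 10 genes kept its direction under all 4 scalings, with a range of -2.78 to -1.39 for EGFR, 2.65 to 4.02 for EREG, 2.77 to 4.19 for DUSP4, -1.77 to -0.37 for DUSP5, 4.19 to 5.62 for SPRY2 and -3.66 to -2.25 for ETV4. DUSP6 at 0.74 and SPRED1 at 0.64 no longer passed the threshold on the mitochondrial scale (adjusted p = 0.115 and 0.172 in edgeR). At 24 h, DUSP5, DUSP6 and SPRED1 turned from higher to lower on that scale (-0.70, -1.06 and -1.07), as did ETV4 at 10 h (-0.42), while SPRED1 at 10 h was -0.14 with library size and -0.79 on the mitochondrial scale. By direction alone, EREG, DUSP4, SPRY2 and SPRY4 were higher, and EGFR and ETV5 lower, at 10, 24, 48 and 72 h under all 4 scalings. Not every value was past 2-fold. On the mitochondrial scale SPRY4 was at 0.41 at 24 h, and EREG, DUSP4 and SPRY4 were at 0.45, 0.97 and 0.275 at 48 h. EGFR at 24 h was at -0.92 with TMM and -0.77 with DESeq2's size factors, and ETV5 at 48 h reached up to -0.91 among the scalings.

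**Figure D3:**
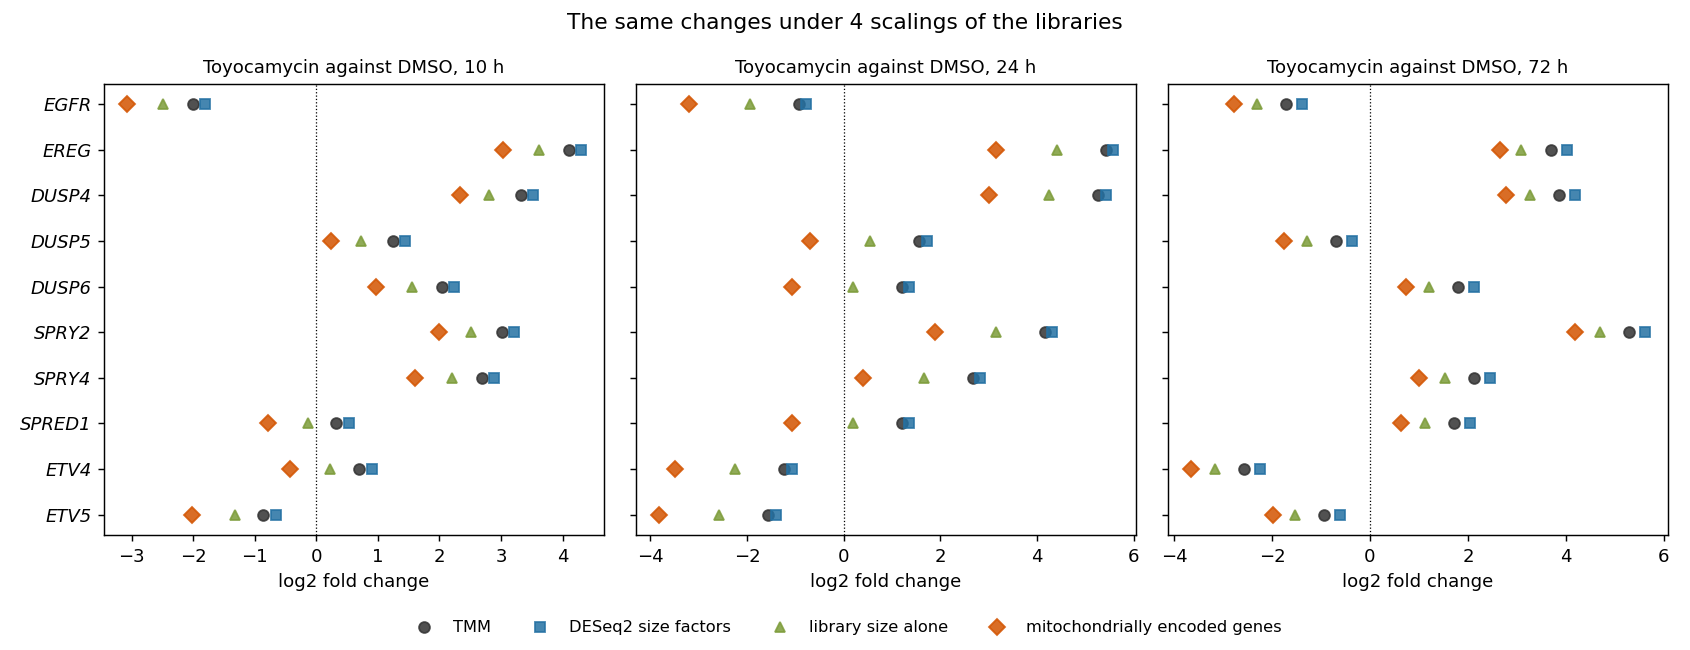
Log2 fold change of toyocamycin against DMSO at 10, 24 and 72 h for each gene under TMM (circles), DESeq2's size factors (squares), library size alone (triangles) and scaling on the mitochondrially encoded genes (diamonds). The 4 points of a gene shift together; they cross 0 for SPRED1 and ETV4 at 10 h and for DUSP5, DUSP6 and SPRED1 at 24 h, and for no gene at 72 h.

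Over the 17 libraries, EREG, DUSP4 and SPRY2 had like profiles in log2 CPM (Pearson r = 0.978 for EREG with DUSP4, 0.947 for EREG with SPRY2 and 0.948 for DUSP4 with SPRY2). EGFR ran against SPRY4 (r = -0.917) and ETV5 against DUSP4 (r = -0.922). The gene outside the group with the most similar profile, among 16511, was TRIM37 for EGFR (r = 0.971), F2RL1 for EREG (0.985), FHL2 for DUSP4 (0.987), BCAR3 for DUSP5 (0.925) and ID2 for DUSP6 (0.950). It was CREBZF for SPRY2 (0.993), ITPRIP for SPRY4 (0.970), ZNF431 for SPRED1 (0.984), PRKAR1B for ETV4 (0.987) and SLC35A5 for ETV5 (0.9748). The libraries share treatment and time, which alone makes many genes run together, so these values are a description.

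Around these 10 genes, 60 other genes of the pathway were followed in 8 lists, and all 60 passed the filter on low counts. The lists were taken from textbook knowledge, but with earlier results of these data known. At 2 h, 14 of the 60 were lower and 1 was higher, where 8.42% and 0.518% of all genes were, and at 72 h 21 were lower and 34 higher, where 41.9% and 47.0% were. At 10 h 20 were lower and 17 higher, where 24.4% and 20.4% of all genes were. The 60 genes were read with TMM scaling alone, and the other scalings, which shift all genes together, were not tried on them.

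Among the other ligands of the EGFR family, HBEGF fell at 2 h (log2 fold change -0.90, adjusted p = 0.0223 in edgeR), and AREG (-0.57, adjusted p = 0.167), TGFA (0.20) and BTC (0.20) did not pass. At 72 h AREG, which encodes the ligand amphiregulin, went from 243 ± 35.1 CPM in DMSO (SD, n = 3) to 1390 ± 117 CPM on toyocamycin (log2 fold change 2.54, adjusted p = 1.52e-09), and HBEGF rose by 2.28 (adjusted p = 6.75e-09). TGFA fell by 2.94 (adjusted p = 6.07e-08) and BTC by 1.38 (adjusted p = 1.01e-05). EGF and EPGN had at most 1 count in a DMSO library of 72 h, and their means of 2.47 and 3.69 CPM on toyocamycin were at least 17.8-fold and 26.5-fold higher than the floor of 3 counts per library. EGF and EPGN had at most 1 count in any library of 2 h.

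The partner receptors ERBB2 and ERBB3 stood at 0.13 and 0.14 at 2 h (log2 fold change, adjusted p = 0.769 and 0.707 in edgeR) and fell with EGFR at 72 h. ERBB2 went from 344 ± 43.5 to 25.7 ± 2.76 CPM (SD, n = 3; log2 fold change -3.71, adjusted p = 5.43e-12) and ERBB3 from 134 ± 3.60 to 25.5 ± 0.15 CPM (-2.36, adjusted p = 8.72e-11). ERBB4 had at most 1 count in a DMSO library of 72 h and 5 to 9 counts in the toyocamycin libraries of 72 h, where its mean of 0.681 CPM was at least 4.9-fold higher than the floor of 3 counts per library (0.139 CPM).

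Of the 17 genes of the RAS, RAF, MEK and ERK cascade, 2 were lower at 2 h (8.42% of all genes were). At 72 h 10 of the 17 were lower and 6 higher (41.9% and 47.0% of all genes were). The adaptor gene GAB1 showed the largest fall of the cascade genes at 2 h (-1.11, adjusted p = 0.00721 in edgeR), and at 72 h MAPK3, which encodes ERK1, went from 45.9 to 2.55 CPM (-4.13, adjusted p = 1.01e-11), while HRAS went from 42.8 to 581 CPM (3.80, adjusted p = 1.61e-11). Of 7 other MAPK phosphatases, 3 were lower at 2 h, and at 72 h 1 was lower and 6 higher, against the same shares of all genes. At 2 h DUSP10 fell from 0.736 to 0.137 CPM (-2.37, adjusted p = 0.00898 in edgeR), on at most 24 counts in a DMSO library and 4 in a toyocamycin library, and DUSP1 (-1.93, adjusted p = 0.000198) and DUSP7 (-1.10, adjusted p = 0.00347), named after their values were seen, fell too. DUSP9 fell from 90.3 to 5.80 CPM at 72 h (-3.92, adjusted p = 5.97e-11), and DUSP10 rose from 0.214 to 177 CPM (9.67, adjusted p = 3.02e-13).

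Of the other 4 Sprouty and SPRED genes, SPRY1 fell at 2 h (-1.05, adjusted p = 0.0116 in edgeR) and rose from 11.6 to 360 CPM at 72 h (4.99, adjusted p = 1.31e-12). At 72 h 3 of these 4 genes were higher, where 47.0% of all genes were. Of 6 further inhibitors of the receptor or of RAS, 2 were lower at 2 h, where 8.42% of all genes were. At 72 h 4 of the 6 were lower and 2 higher, where 41.9% and 47.0% of all genes were. ERRFI1, whose product binds and inhibits the EGFR kinase, fell at 2 h (-1.21, adjusted p = 0.000338) and rose at 72 h (3.56, adjusted p = 5.63e-12), and CBL, whose product marks EGFR for degradation, fell at 72 h (-4.44, adjusted p = 5.66e-11).

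Of 10 further genes that ERK signaling induces, 3 were lower and 1 higher at 2 h, where 8.42% and 0.518% of all genes were. At 72 h 1 of the 10 was lower and 9 higher, where 41.9% and 47.0% of all genes were. PHLDA1 fell at 2 h (-0.68, adjusted p = 0.0195 in edgeR) and rose at 72 h (1.07, adjusted p = 2.24e-06). EPHA4 fell at both times (-0.77 and -0.85, adjusted p = 0.04 and 0.000574). CCND1, which encodes cyclin D1, stood at 0.06 at 2 h (adjusted p = 0.92) and rose by 1.72 at 72 h (adjusted p = 7.97e-09), and EPHA2 stood at -0.41 (adjusted p = 0.363) and rose by 0.65 (adjusted p = 0.00169). Named after their values were seen, FOS fell at 2 h (-1.54, adjusted p = 0.000419 in edgeR) and rose at 72 h (1.52, adjusted p = 1.21e-06), and IER3 was the 1 gene that rose at 2 h (1.09, adjusted p = 0.0472) and rose by 5.03 at 72 h (adjusted p = 2.83e-10). MYC and EGR1, chosen in the same way, rose at 72 h by 4.63 (adjusted p = 1.89e-10) and 3.42 (adjusted p = 4.93e-10). Of 7 transcription factors that ERK controls, 2 were lower at 2 h (8.42% of all genes were), with ETS2 at -1.29 (adjusted p = 6.2e-05 in edgeR). At 72 h 1 of the 7 was lower and 3 higher (41.9% and 47.0% of all genes were), with ELK1 at -0.97 (adjusted p = 3.22e-06 in edgeR) and ETS1 at 3.09 (adjusted p = 3.79e-11).

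**Figure D4:**
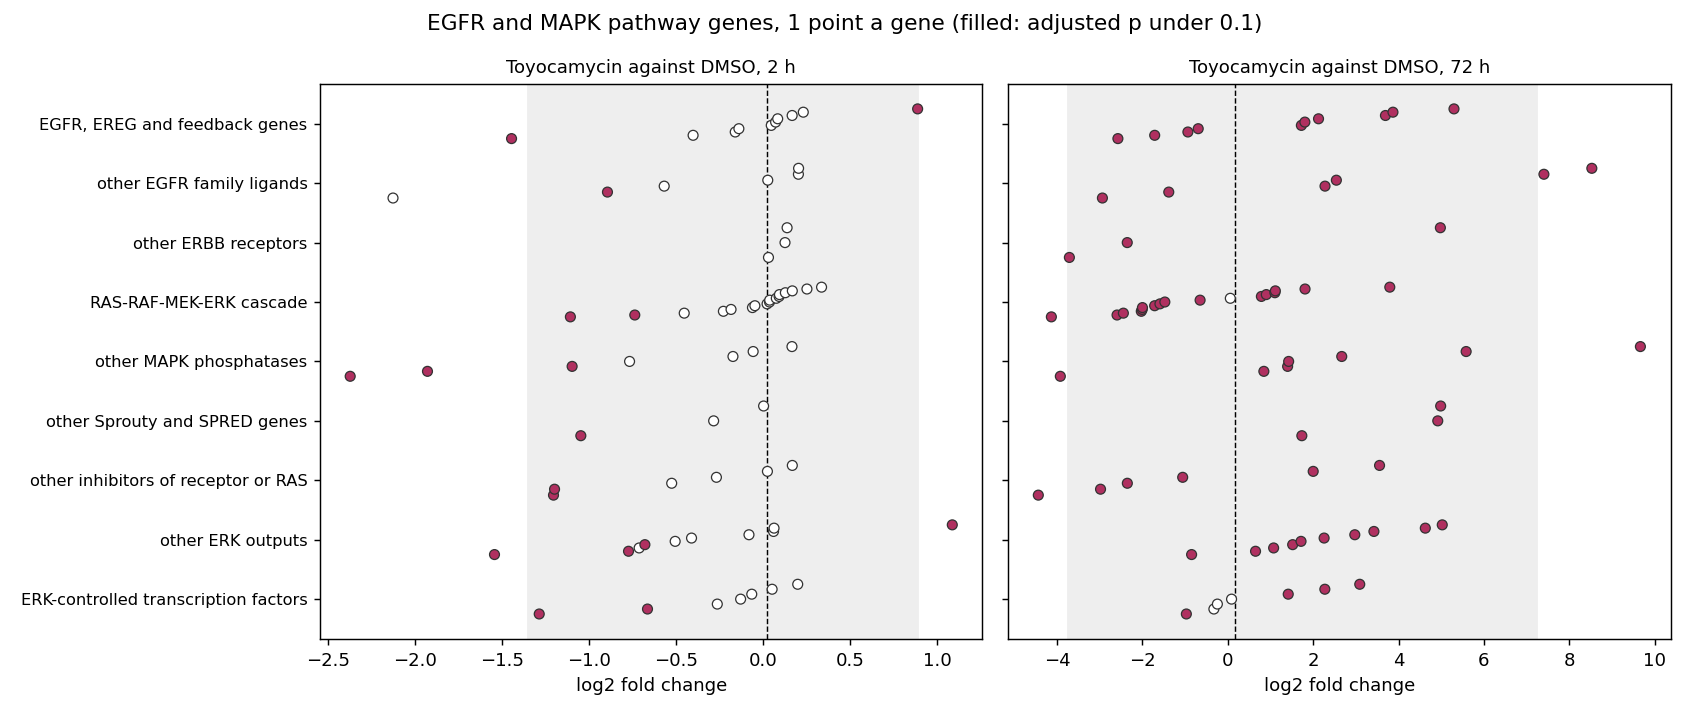
Log2 fold change of toyocamycin against DMSO at 2 h and 72 h for EGFR, EREG and the feedback genes (top row) and for the other genes of the pathway by list, with 1 point for each gene, filled where the adjusted p was under 0.1. The grey band spans the 5th to 95th percentile of all genes and the dashed line is their median; EGF, EPGN and ERBB4, with at most 1 count in a DMSO library of 2 or 72 h, are drawn at fitted values that are no bound, and 1 Sprouty gene is left out. At 2 h most points lie within the band, and at 72 h points of most lists lie on both sides of 0.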

How the data were processed

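RNA from YB5 cells was sequenced by the authors, who aligned reads with STAR 2.7.5a to GRCh38 and counted them per gene of Ensembl release 100. The values used are the counts that the authors deposited, whole numbers with no normalization. A table of the authors' own edgeR comparisons (log2 fold changes and p-values) was not used, and 1 column of the count table that matches no labelled sample was not used here. Of 19141 genes, 19080 were matched to a symbol of GENCODE 44, which also gave positions and exon lengths. Strand setting of the counting is not given in the sources used here.

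The 10 genes, the pathway lists and the tests were chosen with earlier results of these data known. The genes named by rule outside the 10 are every EGFR family ligand and receptor, CCND1, EPHA2, EPHA4 and PHLDA1, the extremes among those called in each other list at 2 and 72 h, and the gene with the highest r for each of the 10. DUSP1, DUSP7, FOS, IER3, MYC and EGR1 fall outside that rule and were named after their values were seen. Tools were edgeR 4.0.16, DESeq2 1.42.0 and limma 3.58.1 under R 4.3.3, and Python 3.11.15. Genes were filtered with filterByExpr, libraries scaled with TMM, and contrasts assessed in edgeR at a false discovery rate of 0.1, as the methods of the paper state. These name glmTreat with a minimum fold of 1, and the form used here, the quasi-likelihood test as it was before edgeR 4 with Benjamini-Hochberg adjustment over all genes tested, was chosen for this work. A fit of 14 libraries (14491 genes) gave the results of 2, 24, 48 and 72 h, and a fit of all 17 (16521 genes) those of 10 h. CPM, apart from those of the cell type markers, were scaled with the factors of all 17. At 24 and 48 h, with 1 library in an arm, no p-value is given and a gene counts when it passes 2-fold. The tests were tried on simulated counts with known changes. Library totals were 8735465 to 22121364 counts, and a floor of 3 counts covers counting error only. Promoters are RefSeq sequences of GRCh38.p14.

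Replicate numbers at 2 h are the labelled batches, and deviations of same-numbered libraries from their group means correlated at 0.307. A block on replicate number was therefore tried as an alternative, while the main tests carry no block. Alternatives tried were other scalings (size factors of DESeq2, library size, 13 mitochondrially encoded genes), other tests (the Wald test of DESeq2 and edgeR 4), other filters and library sets, a threshold of 0.05, terms for batch or replicate number, and leaving out each library.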

Additional observations from a re-analysis of the deposited data

Results flagged for a closer look

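The effect of toyocamycin differed between 72 h and 2 h for all 10 genes, by the test of the difference itself in edgeR (Benjamini-Hochberg adjusted over 14491 genes), where 76.1% of all genes differed. The effect at 72 h minus that at 2 h, on the log2 scale, was 5.26 for SPRY2 (adjusted p = 8.72e-11), 4.01 for DUSP4 (adjusted p = 3.05e-09), 3.53 for EREG (adjusted p = 6.76e-09), 2.13 for SPRED1 (adjusted p = 4.77e-07) and 1.74 for DUSP6 (adjusted p = 2.01e-06). It was 1.24 for SPRY4 (adjusted p = 0.000144) and 0.75 for DUSP5 (adjusted p = 0.014). It was -2.81 for ETV4 (adjusted p = 3.53e-08), -1.80 for EGFR (adjusted p = 6.48e-07) and -0.78 for ETV5 (adjusted p = 0.0119). The call of DUSP5 was lost with library size alone and in the fit of all 17 libraries (0.21 and 0.72, adjusted p = 0.482 and 0.2 in edgeR), and that of ETV5 in the Wald test of DESeq2 (-0.49, adjusted p = 0.115). On the scale of the mitochondrially encoded genes DUSP5 (-0.17, adjusted p = 0.89 in edgeR), DUSP6 (0.85, adjusted p = 0.309), SPRY4 (0.28, adjusted p = 0.777) and SPRED1 (1.09, adjusted p = 0.178) did not pass. EREG, DUSP4, DUSP5 and DUSP6 also rose in DMSO between these times, also without the DMSO library of batch 2, and the part of culture time in these differences was not tested.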

How the results depend on the processing

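Of the values of single genes under the alternatives, 848 were counted as the same. At the tested times these kept their direction and side of the threshold. At 24 and 48 h, where an arm is 1 library, they stayed within the 95% counting interval around the main value, whichever side of 2-fold they were on. Another 70, all of 24 and 48 h, moved past that interval, 27 lost and 9 gained a call, and 26 reversed. At 24 and 48 h a value was counted as reversed only where the main value was past 2-fold. Of the counts of genes, 168 stayed within 1.5 times and 13 did not. Arms of 1 or 2 libraries and low depth at 10 h limit what can be called. With library size alone, 4 of the 10 genes were past a 2-fold rise at 24 h, where 16.3% of all genes were, against 29.7% of all genes with TMM. In that setting SPRY2 at 2 h turned to -0.016 and SPRED1 at 10 h to -0.14. On the scale of the mitochondrially encoded genes, 0 genes were lower and 0 higher at 2 h in edgeR (DUSP5 -1.60, adjusted p = 0.289, and SPRY4 0.72, adjusted p = 1, with 1 gene, DUSP5, at an unadjusted p under 0.05), 4 were higher at 10 h, 5 lower and 3 higher at 24 h, 5 lower and 1 higher at 48 h, 3 had a higher effect at 72 h than at 2 h, and 4 changed in DMSO. On that scale the reversed values were EGFR -0.002, DUSP6 -0.10 and SPRY2 -0.18 at 2 h, SPRED1 -0.79 and ETV4 -0.42 at 10 h, DUSP5 -0.70, DUSP6 -1.06 and SPRED1 -1.07 at 24 h, SPRED1 -0.49 at 48 h, DUSP5 -0.17 for 72 h minus 2 h, and SPRED1 0.27, ETV4 0.67 and ETV5 0.28 in DMSO. DUSP5 at 48 h changed sign too, from 0.04 with TMM to -1.81 on that scale and -0.57 with library size alone. It was counted as moved, since its TMM value was not past 2-fold. ETV4 in DMSO was 0.001 with DESeq2's size factors and the Wald test. Over all genes on the mitochondrial scale, 0.6% were lower and 0.0828% higher at 2 h, 32.5% and 3.04% at 10 h, 71.1% and 8.98% past 2-fold at 24 h and 59.1% and 20.1% at 48 h, 19.4% had a higher effect at 72 h than at 2 h, and 0.248% were lower and 3.89% higher in DMSO. The cause of these shifts was not tested beyond the scaling itself.

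Leaving out 1 library at a time, 1 to 2 genes were lower at 2 h (2 without replicate 1 of DMSO at 2 h), 4 to 7 changed in DMSO (4 without replicate 2 of DMSO at 2 h), and 6 to 7 were higher at 10 h. At 2 h the values ranged from -0.018 to 0.19 for EGFR, -0.008 to 0.36 for EREG, -0.38 to 0.15 for DUSP4, -0.14 to 0.26 for DUSP6, -0.14 to 0.27 for SPRY2 and -0.40 to 0.049 for ETV5, and in DMSO from -0.091 to 0.07 for ETV4. With the replicate block, 2 genes were lower at 2 h (SPRED1 in addition to DUSP5), and the block changed no other call at 2 h or 72 h. At 72 h the numbers share only a number: same-numbered libraries correlated at -0.105, 0.043 and -0.088, and the block left 4 lower and 6 higher. No paired analysis was possible at 10, 24 or 48 h because the arms share fewer than 2 numbers, nor for DMSO at 72 h against 2 h because a block within a time cannot compare times.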
